A study of Mus musculus with 8 samples.

Results

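The clustered protocadherin genes of the mouse comprised 58 members, 14 in the Pcdha cluster, 22 in the Pcdhb cluster and 22 in the Pcdhg cluster, out of 21896 protein-coding genes in the RefSeq annotation. They were taken by symbol and lie on chromosome 18 of the mm10 build, chr18:36930285-37841873, and every peak with a summit in that interval or within 200 kb on either side was used. Of the members, 57 were annotated as protein-coding and Pcdhgb8 as a transcribed pseudogene. The interval with its flanks held 125 of 98759 CTCF peaks in WT and 112 of 82227 in C59, and 84 of 47281 Smc3 peaks in WT and 36 of 25734 in C59.

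The peaks came from chromatin immunoprecipitation sequencing (ChIP-seq) of JM8.N4 mouse embryonic stem cells, which were grown without feeder cells in medium with serum and LIF and fixed with formaldehyde. WT is the wild-type line. C59 is a JM8.N4 line that carries FLAG-Halo-CTCF and Rad21-SNAPf-V5 as homozygous knock-ins at the endogenous genes, so that all of its CTCF and all of its Rad21, a cohesin subunit, bear tags. C59 is 1 line, whereas the antibodies against CTCF and Smc3 were the same in both lines, and a difference between the lines cannot be told apart from a difference between 2 libraries. There was 1 library per line and protein, so no value has a standard deviation and no test between the lines was possible.

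Clustered protocadherins are cell-surface adhesion proteins of the cadherin family, best known from neurons, where each cell uses a different combination of them for recognition between cells. Each member has its own promoter in front of a large variable exon. In the Pcdha and Pcdhg clusters that exon is spliced to constant exons shared by the whole cluster, whereas a Pcdhb gene ends with its own exon. CTCF, a DNA-binding zinc finger protein, binds most of these promoters and also distal enhancers, and cohesin, a ring-shaped complex of which Smc3 is a core subunit, is held at CTCF sites and is known to bring such promoters and enhancers together. A conserved promoter element that includes the CTCF site is known to be missing from Pcdhac2, Pcdhb1, Pcdhgc4 and Pcdhgc5.

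Values below are the authors' pileup, the number of sequenced fragments stacked at a peak's summit as scaled in its list, and the authors' fold, the pileup over the local background. Both were used only within a list, because how the lists were scaled to each other is not stated. Annotated 5′ ends were taken as the lower coordinate of each gene, and a member was counted as bound at its 5′ end when a summit lay within 500 bp of it. Variable exons of the clusters resemble one another, and the sources used here do not say how reads that match several of them were handled. The peaks were dense in the interval of the genes, with 10.6 CTCF peaks per 100 kb in WT and 9.65 in C59, and 7.57 and 2.85 Smc3 peaks, against 3.91 and 3.26 for CTCF and 1.88 and 1.03 for Smc3 on the other autosomes. The local background implied by pileup and fold had medians of 5.22 over the peaks of the region with its flanks and 5.22 on the other autosomes for WT CTCF, 4.00 and 4.00 for C59 CTCF, 5.21 and 5.29 for WT Smc3, and 3.88 and 4.43 for C59 Smc3. At the members' 5′ ends the medians were 6.09, 4.12, 5.72 and 3.88 in that order, and in the Pcdhg cluster 6.96, 4.75, 7.42 and 5.25, above those of the other autosomes in all 4 lists.

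**Figure D1:**
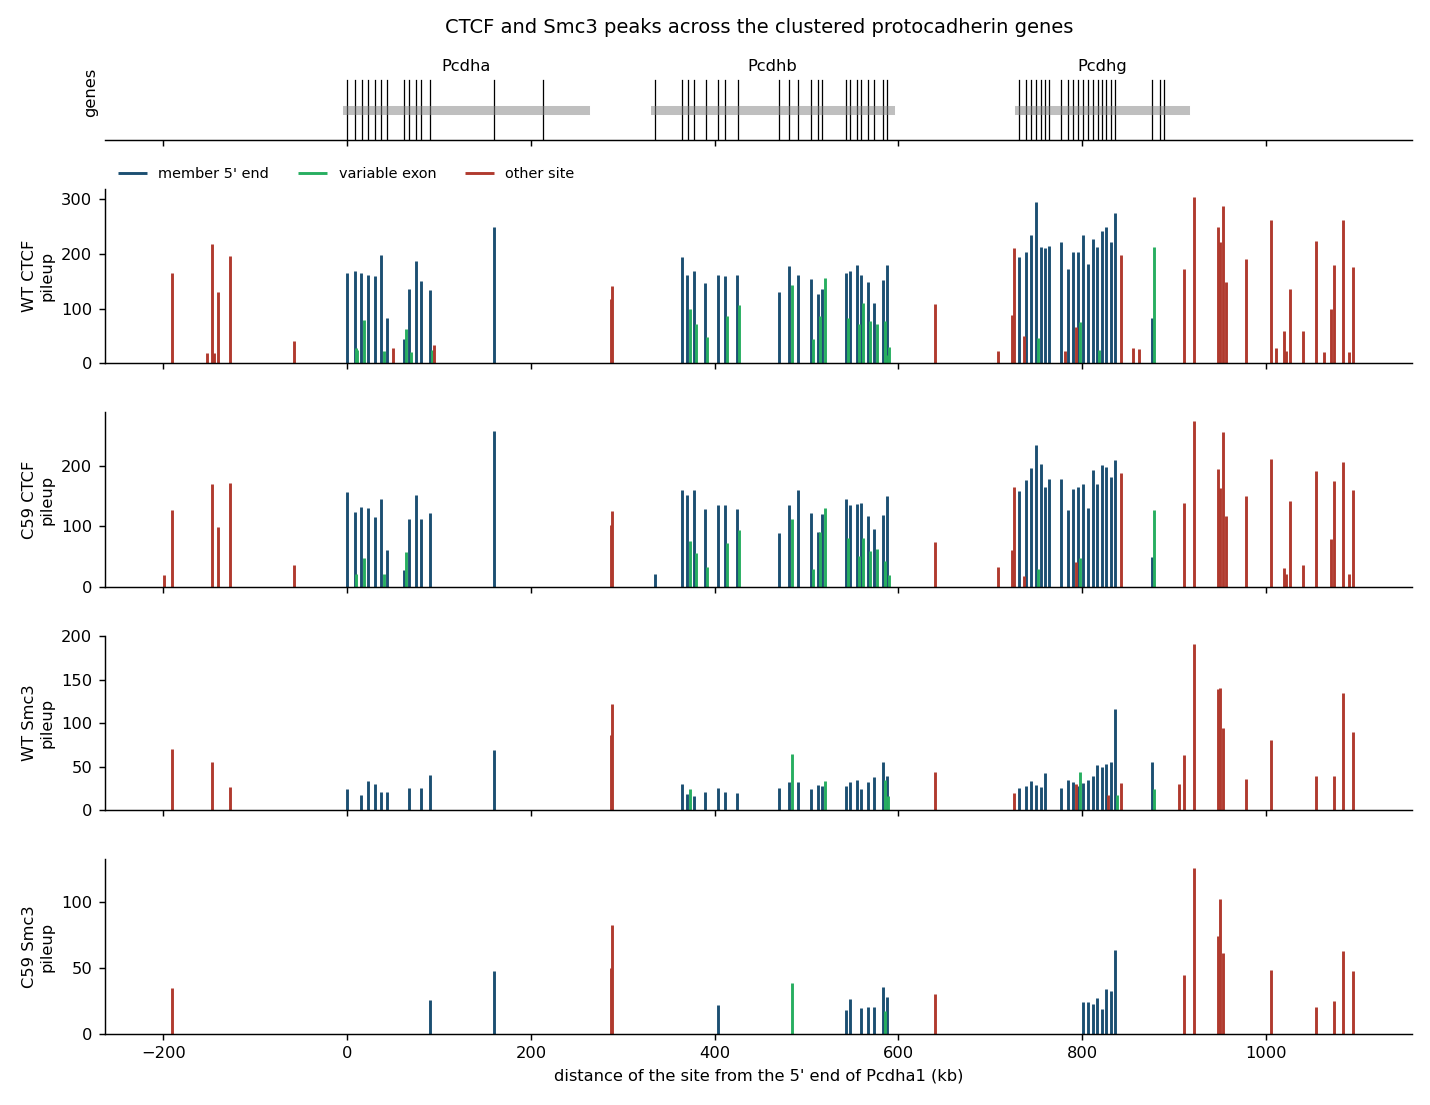
Peaks of the 4 lists across the clustered protocadherin genes and 200 kb on either side. The x axis is the distance from the 5′ end of Pcdha1 in kb, black ticks in the top row mark the members' 5′ ends, grey bars the 3 clusters, and each vertical line is 1 merged site with its pileup in that list, coloured by whether it lies at a member's 5′ end, in a variable exon or elsewhere. CTCF lines stand at nearly every 5′ end in both lines, whereas most of the tallest Smc3 lines stand outside the arrays of variable exons.

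CTCF was found at the 5′ end of 54 of the 58 members in WT and of 54 in C59, and 53 were the same members. Over 17491 protein-coding genes whose strand is known from the RefSeq promoter table, the share was 20.2% in WT and 16.8% in C59. By cluster, WT CTCF stood at 13 of 14 Pcdha, 21 of 22 Pcdhb and 20 of 22 Pcdhg members, and C59 CTCF at 12, 22 and 20. Other gene families that lie in clusters or share the name did not show such shares in WT. CTCF was at 4 of 22 Hox genes, at 9 of 944 olfactory receptor genes and at 1 of 9 nonclustered protocadherins that the promoter table holds, and in C59 at 4, 9 and 0 of them. The members' CTCF peaks were strong within each list. Their median fold was 25.4 in WT and 26.2 in C59, at the percentile 83.8 and 80.2 of all peaks of the list.

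The members without a CTCF summit in both lines were few. Pcdhac2, the last variable exon of the Pcdha cluster, had its nearest CTCF summit at −53729 bp from its 5′ end in WT and at −53706 bp in C59, where Pcdhac1 begins. Pcdhgc4 and Pcdhgc5, the last variable exons of the Pcdhg cluster, had none closer than −6128 and −10595 bp in WT, and −6150 and −10617 bp in C59. Pcdhb1, the first Pcdhb gene, had no WT CTCF peak within 29745 bp and a weak C59 peak, with a pileup of 22.1 and a fold of 5.06, where the lowest fold of a C59 CTCF peak in the region was 3.05. These 4 members are those said above to lack the conserved promoter element. Pcdha4 was counted in WT alone, with a pileup of 162 and a fold of 16.8. Its C59 peak, with a pileup of 131 and a fold of 22.0, also covered the 5′ end, but the summit was placed 567 bp after it.

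Among the Pcdha members CTCF was uneven. Pcdhac1, a C-type member with a promoter far from the rest of the array, had the highest CTCF pileup of its cluster, 249 in WT and 258 in C59, with folds of 31.4 and 56.7. Pcdha6 had the highest WT fold, 37.2, with a pileup of 198, and in C59 a fold of 32.0 with a pileup of 145. The weakest were Pcdha8, with a pileup of 45.0 in WT and 27.9 in C59 and folds of 8.60 and 6.33, and Pcdha7, with pileups of 82.0 and 61.5 and folds of 15.8 and 13.7. By pileup these were the 2 lowest members of the cluster in both lines. By C59 fold Pcdha3, with 13.3, was below Pcdha7.

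The Pcdhb members were more alike. Across the 21 bound in WT the pileup ran from 110 to 194 with a median of 162, and in C59 from 22.1, at Pcdhb1, to 161 with a median of 135. Pcdhb16 and Pcdhb4 had the highest WT folds, 32.1 and 31.6, with pileups of 168 each, and C59 folds of 22.8 and 22.9 with pileups of 136 and 160. Pcdhb21 and Pcdhb20 had the lowest WT folds, 15.8 and 17.3, with pileups of 152 and 110, and C59 folds of 24.0 and 19.2 with pileups of 119 and 95.2. The order by fold thus differed between the lines, since the fold of Pcdhb21 was below that of Pcdhb16 in WT and above it in C59.

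Pcdhg members had the highest median pileup of the clusters, 214 in WT and 177 in C59. The highest single C59 pileup was that of Pcdhac1, 258. Pcdhgb1 was the highest of all members in WT, with a pileup of 295 and a fold of 41.8, and had 234 and 32.4 in C59. Pcdhgb7 had pileups of 241 and 201 and folds of 41.5 and 43.9. Pcdhgc3, the only one of the 3 C-type Pcdhg members with CTCF, was the weakest, with pileups of 82.0 and 49.0 and folds of 10.4 and 5.56. Next lowest by WT fold was Pcdhga7, with 15.1 in WT and 18.4 in C59 on pileups of 172 and 128.

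**Figure D2:**
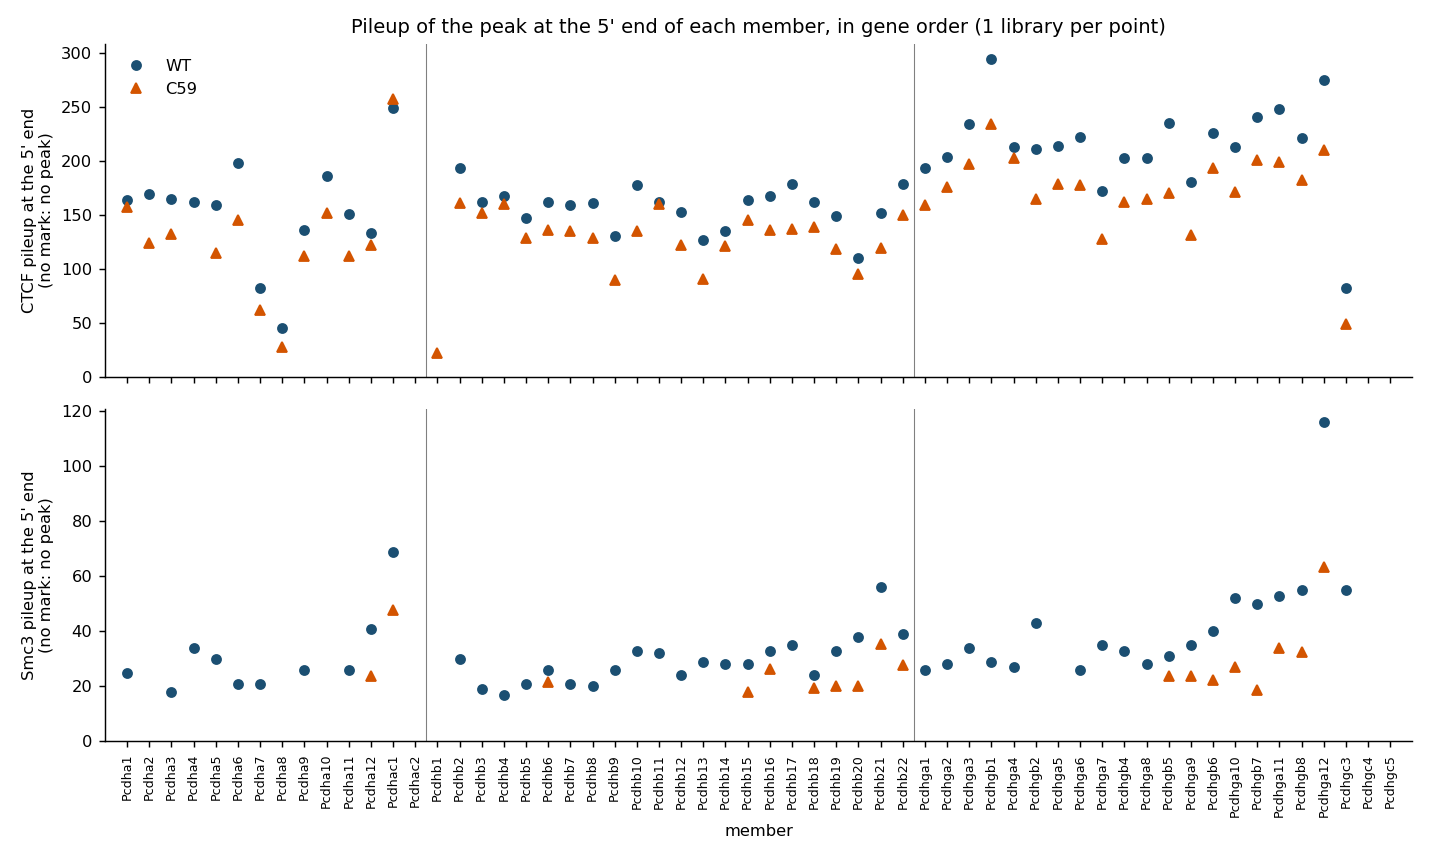
Pileup of the CTCF peak (top) and the Smc3 peak (bottom) at the 5′ end of each member, in gene order along the x axis, with WT as circles, C59 as triangles and vertical lines between the clusters. A member without a mark has no peak there, and each mark is 1 library. CTCF marks of both lines follow each other along the genes, and Smc3 marks of C59 gather towards the downstream part of each cluster.

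The members' order was similar between the lines by pileup and not by fold. Across the 53 members bound in both, Spearman's rho between WT and C59 was 0.93 for the pileup and 0.25 for the fold, given as a description because members share their libraries and lie side by side. For Smc3, over the 18 members bound in both, it was 0.76 for the pileup and 0.28 for the fold. The implied background, whose rho was 0.11 for CTCF and 0.27 for Smc3, differed between members. Pcdhga3, chosen after its values were seen, had a CTCF pileup of 234 and a fold of 16.7 on a background of 13.0 in WT, and a pileup of 197 and a fold of 39.6 on a background of 4.00 in C59. Pcdhga6, chosen likewise, showed the reverse, with pileups of 222 and 178, folds of 28.0 and 16.3 and backgrounds of 6.96 and 10.0. The part of such background differences in the order of the folds was not tested.

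**Figure D3:**
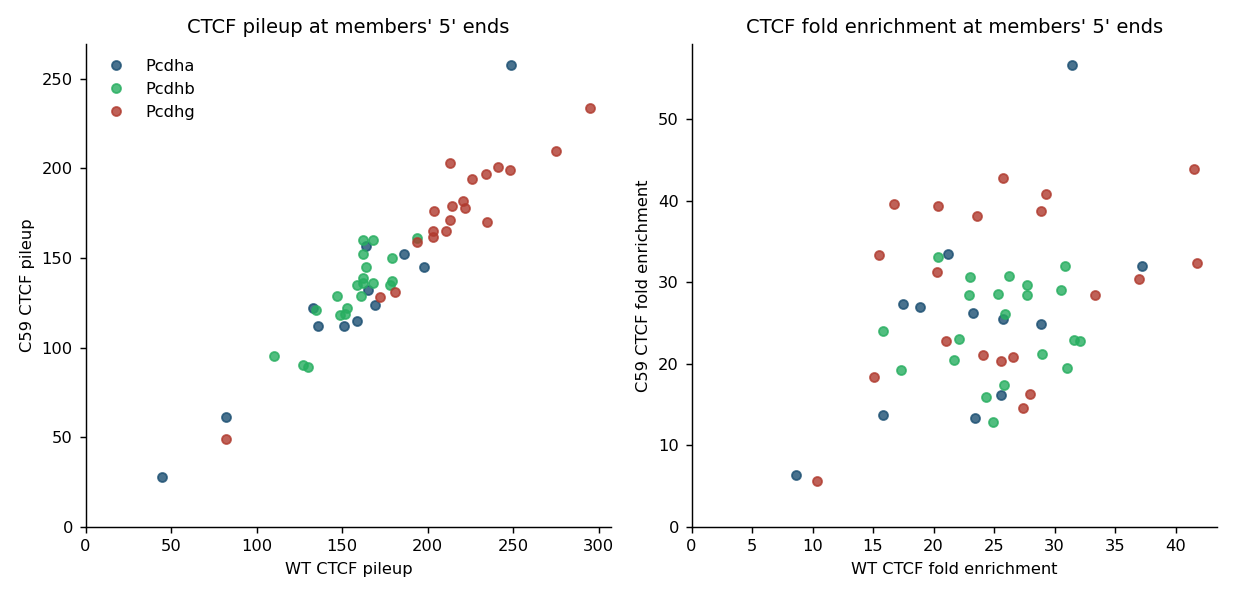
WT (x axis) against C59 (y axis) for CTCF at the 5′ ends of the 53 members bound in both lines, by pileup (left) and by fold (right), with each point 1 member coloured by cluster. The points lie close to a line by pileup, with a rho of 0.93, and scatter by fold, with a rho of 0.25.

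CTCF summits stood at nearly the same place at each member. In WT 53 of the 54 summits, and in C59 52 of 54, lay in the 250 bp before the 5′ end. Of all protein-coding genes with a CTCF summit within 500 bp, 34.8% in WT and 37.1% in C59 had it there. The middle 50% of the members' summits fell between −91.2 and −59 bp relative to the 5′ end in WT, and between −97 and −63.2 bp in C59. Pcdhga12, the last A-type exon of its cluster, was the exception in both lines, with its summit 285 bp after the 5′ end in WT and 283 bp after it in C59. Pcdha12 had its summit at −199 bp in WT and 474 bp after the 5′ end in C59, but in each line its peak covered both places.

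Peaks at Pcdha members were wider than those of the other clusters. Their median width was 1443 bp in WT and 1399.5 bp in C59, and the median peak reached 855 bp and 867 bp into the gene. The median Pcdhb peak was 884 bp wide in WT and 798 bp in C59 and ended 406 bp and 354.5 bp into the gene. The median width at Pcdhg members was 920 bp and 857 bp.

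A further CTCF summit inside the gene, between 501 and 2500 bp after the 5′ end, was found at 16 of 22 Pcdhb members in WT and at the same 16 in C59. Of all protein-coding genes with a known strand, 18.3% in WT and 15.1% in C59 had a CTCF summit in that window. Its median position was 2226 bp after the 5′ end in WT and 2224 bp in C59. Such summits, in addition to one at the 5′ end, were seen at 6 of 14 Pcdha members in WT and 4 in C59. At 3 and 2 of 22 Pcdhg members, the share was not above that of all genes. The lists give each peak a summit of its own and no further one, and the median Pcdha peak reached 855 bp into the gene in WT and 867 bp in C59. A further CTCF site inside such a wide peak would not be counted, so the Pcdha counts can be too low. The Pcdhb members without a further summit in either line were Pcdhb1, Pcdhb2, Pcdhb6, Pcdhb9, Pcdhb11 and Pcdhb16. The highest of these further peaks were at Pcdhb14, with pileups of 156 in WT and 131 in C59 and folds of 29.8 and 28.9, and at Pcdhb10, with pileups of 143 and 112 and folds of 26.9 and 18.8. Pcdhb14 and Pcdhb10 were chosen for their values. At Pcdhb14 the inner peak's pileup was above that at the 5′ end in both lines, where it was 135 in WT and 121 in C59. A peak of this kind also lay just past the window at Pcdhgc3, whose merged site had its summit 2541 bp after the 5′ end. Its CTCF pileups were 212 in WT and 127 in C59, with folds of 36.7 and 16, above those of Pcdhb14 in WT and below them in C59.

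**Figure D4:**
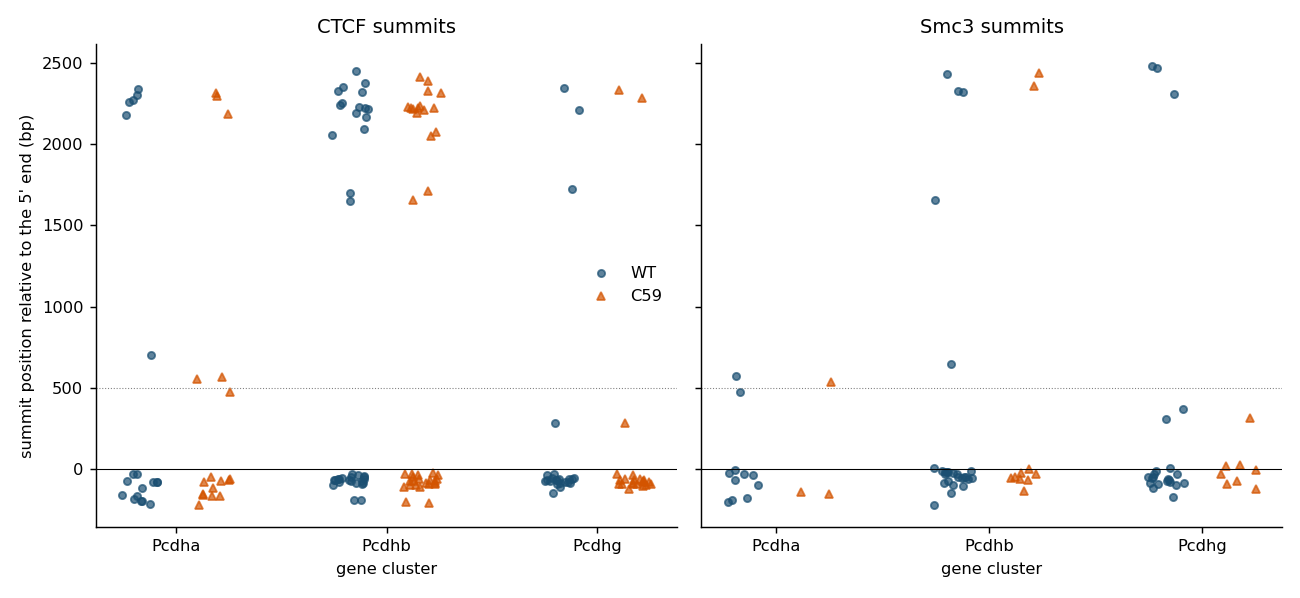
Summit position relative to the annotated 5′ end in bp (y axis) for CTCF (left) and Smc3 (right), by cluster, with WT as circles and C59 as triangles. Each mark is the strongest summit of 1 member within 500 bp of the 5′ end or, above the dotted line, between 501 and 2500 bp after it. CTCF summits fall into a band just before the 5′ end and a band near 2224 bp after it, which is filled mainly by Pcdhb members.

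Smc3 was found at the 5′ end of 50 of the 58 members in WT and of 18 in C59, all 18 among the 50. The share over protein-coding genes was 8.94% in WT and 3.72% in C59. Every member with Smc3 there also had CTCF in the same line. By cluster, Smc3 stood at 10 Pcdha, 21 Pcdhb and 19 Pcdhg members in WT and at 2, 8 and 8 in C59. The 8 members without Smc3 in either line were Pcdha2, Pcdha8, Pcdha10, Pcdhac2, Pcdhb1, Pcdhga5, Pcdhgc4 and Pcdhgc5. Of these, Pcdha2, Pcdha10 and Pcdhga5 had strong CTCF, with WT pileups of 169, 186 and 214.

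The drop from 50 to 18 members depended on the length of the lists. With each list held to its 25734 strongest peaks, the length of the C59 Smc3 list, 15 members had Smc3 at the 5′ end in WT and 18 in C59, and 12 were the same. With a stricter threshold on the q-value, at a −log10 q of at least 10, the counts were 29 and 6. Shares over all protein-coding genes were not computed at these settings. Whether the changes in the counts are particular to the members therefore cannot be told. At equal length the WT members were Pcdha12, Pcdhac1, Pcdhb16, Pcdhb17, Pcdhb19, Pcdhb20, Pcdhb21, Pcdhgb2, Pcdhga9, Pcdhga10, Pcdhgb7, Pcdhga11, Pcdhgb8, Pcdhga12 and Pcdhgc3.

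The members with Smc3 in both lines lay mostly together, in the downstream part of each cluster. They were Pcdha12 and Pcdhac1, then Pcdhb6, Pcdhb15, Pcdhb16 and Pcdhb18 to Pcdhb22, then the 8 consecutive members from Pcdhgb5 to Pcdhga12. The following stretches were chosen after the values were seen and are descriptions. From Pcdhb2 to Pcdhb14 the WT Smc3 pileup had a median of 26 over 13 members, of which 1 had C59 Smc3. From Pcdhb15 to Pcdhb22 the WT median was 34 over 8 members, of which 7 had C59 Smc3. From Pcdhga1 to Pcdhga8, 10 of 11 members had WT Smc3, with a median of 28.5, and 0 had C59 Smc3. From Pcdhgb5 to Pcdhga12 all 8 had both, with a WT median of 51 and a C59 median of 25.4. In the Pcdha cluster 8 of the 11 members from Pcdha1 to Pcdha11 had WT Smc3, with a median of 25.5, and 0 had C59 Smc3. Thus the members with Smc3 in C59 were those with more of it in WT, where their median pileup was 39.5, against 27.5 for the 32 members with Smc3 in WT alone. The ranges overlapped, from 24 to 116 and from 17 to 55.

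The highest Smc3 values at 5′ ends were those of a few members. Pcdhga12 had a pileup of 116 in WT and 63.3 in C59, with folds of 9.73 and 7.14, and its Smc3 summit, like its CTCF summit, lay inside the exon, 307 and 315 bp after the 5′ end. Pcdhac1 followed with 69.0 and 47.9 and folds of 8.99 and 10.7. Pcdhgb7 had a WT fold of 8.94 and a C59 fold of 4.24, with pileups of 50.0 and 18.5. Pcdha12 had a WT fold of 8.14 and a pileup of 41.0 at a summit 476 bp after the 5′ end. In C59 its peak at the 5′ end, at −153 bp, had a fold of 5.46 and a pileup of 23.9, and a separate C59 peak 537 bp after the 5′ end had a fold of 5.80 and a pileup of 25.5. In the Pcdhb cluster the highest WT folds were those of Pcdhb16, 6.59 with a C59 fold of 4.54, and Pcdhb20, 6.41 with a C59 fold of 4.21. By pileup Pcdhb21, chosen for its values, was the highest of that cluster, with 56 in WT and 35.5 in C59. Its folds were 5.10 and 7.68, the latter the highest C59 fold of the cluster. Pcdhgc3 had a WT pileup of 55 and a fold of 6.49 and no C59 Smc3 peak, although its CTCF was the weakest of its cluster.

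Smc3 was low at the members' 5′ ends in relation to CTCF. The median fold of the members' Smc3 peaks was 4.63 in WT and 4.54 in C59, at the percentile 34 and 26.3 of their lists. For their CTCF peaks the percentiles were 83.8 and 80.2. These percentiles are not directly comparable, because the lists differ in make-up. In WT 95.2% of all Smc3 peaks overlapped CTCF, whereas 44.3% of all CTCF peaks overlapped Smc3, and in C59 the shares were 97.9% and 30%. CTCF peaks of like pileup were therefore compared. In WT 24 of the 26 members' CTCF peaks with a pileup between 154 and 209, their own quartiles, overlapped Smc3, with a median Smc3 pileup of 28. Of the 10569 WT CTCF peaks outside the region within the same pileup range, 93.7% overlapped Smc3, and their median Smc3 pileup was 51, with quartiles of 39 and 67. In C59 7 of the 27 members' peaks between 122 and 169 overlapped Smc3, or 25.9%, against 68.6% of the 9756 peaks outside the region. The median C59 Smc3 pileup where found was 23.9 at the members and 31.6 outside the region.

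**Figure D5:**
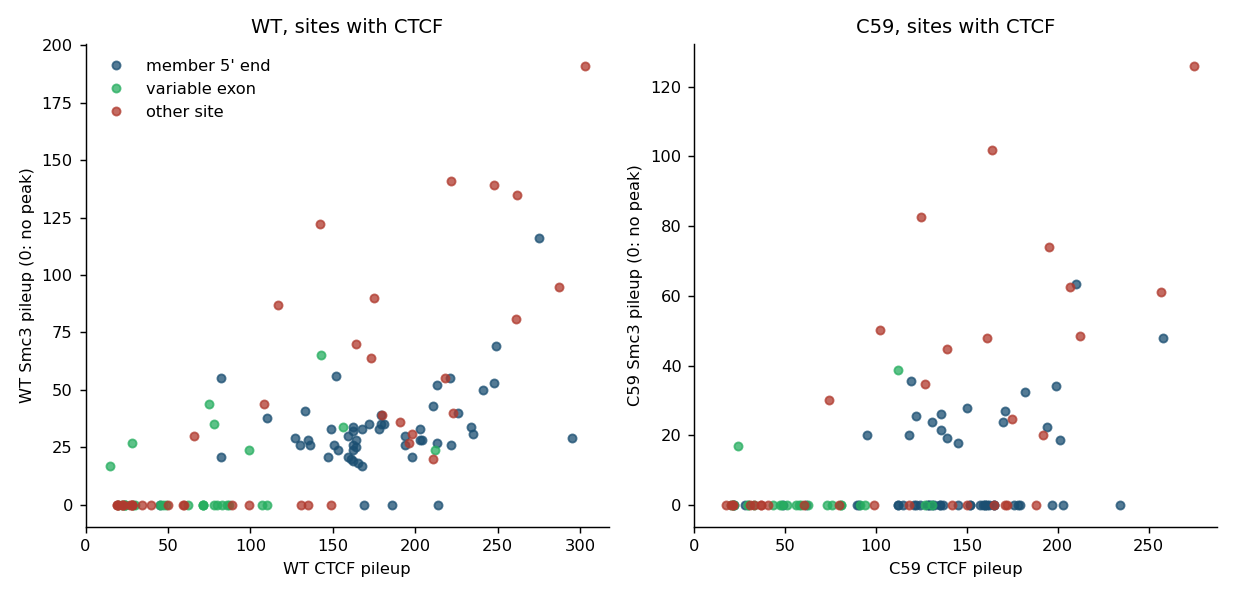
Smc3 pileup (y axis) against CTCF pileup (x axis) at the sites of the region with CTCF, in WT (left) and C59 (right), with points at 0 on the y axis where no Smc3 peak was called. Each point is 1 site, coloured as a member's 5′ end, a variable exon or another site. Most 5′ ends lie low for their CTCF pileup, and the highest Smc3 pileups, 191 in WT and 126 in C59, belong to other sites.

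At members' 5′ ends the Smc3 summit tended to lie further into the gene than the CTCF summit it overlapped. It did so at 36 of 51 peaks in WT (70.6%) and at 14 of 19 in C59 (73.7%), with a median distance of 20 bp and 30 bp. At the 5′ ends of other protein-coding genes the Smc3 summit lay downstream along the gene in 49.5% of cases in WT and 48.9% in C59. Over the rest of the genome it lay at the higher coordinate in 49.3% and 49% of cases. This comparison was added after the data had been seen, and neighbouring members are not independent of each other.

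Inside the variable exons Smc3 was rarer. It was found between 501 and 2500 bp after the 5′ end at 9 of the 58 members in WT and 3 in C59. The share over protein-coding genes in that window was 7.76% in WT and 3.51% in C59, so that the C59 count was near it. The highest was at Pcdhb10, with a pileup of 65.0 in WT and 38.6 in C59 and folds of 12.6 and 7.92, at the inner CTCF summit. There the inner Smc3 peak exceeded the one at the 5′ end, which had a pileup of 33.0 in WT and no peak in C59. Pcdhb14, with the highest CTCF fold in that window, had an inner Smc3 pileup of 34.0 in WT and no peak in C59.

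Over the whole region with its flanks, peaks of the 4 lists merged into 129 sites, 55 at members' 5′ ends, 30 in variable exons and 44 elsewhere. Of the WT CTCF peaks 110 of 125 (88%) were found in C59, against 79.8% of the whole list, and of the C59 CTCF peaks 110 of 112 (98.2%) in WT, against 97.1%. At the same spread over deciles of fold the genome gave 89.8% and 99%, so neither share of the region was above that of peaks of like fold. The 15 WT CTCF peaks without a C59 peak were weak, with a median pileup of 24 and none above 36, against a median of 160 for the 110 others. Of the WT Smc3 peaks 35 of 84 (41.7%, exact Clopper-Pearson interval 31 to 52.9%) were found in C59, against 52.9% of the whole list and 45.1% at the same spread over deciles of fold. All 36 C59 Smc3 peaks were found in WT, against 98.1%. Intervals cover counting error only.

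CTCF and Smc3 overlapped at 79 of 125 WT CTCF peaks (63.2%) and at 34 of 112 C59 CTCF peaks (30.4%), against 44.3% and 30% of the whole lists. At the same spread over deciles of fold the genome gave 67.2% in WT and 48.7% in C59. The C59 share of the region, with an interval of 22 to 39.8%, was lower, but neighbouring peaks are not independent and the difference was not tested. With lists of equal length the shares of the region were 36.6% in WT and 42.4% in C59, and no genome share was computed at that length. Conversely, in the full lists 81 of 84 WT Smc3 peaks (96.4%) and 36 of 36 C59 Smc3 peaks overlapped CTCF, against 95.2% and 97.9%. The 3 WT Smc3 peaks without CTCF had pileups of 18, 18 and 30, and 2 of them lay 2526 bp after the 5′ end of Pcdhga11 and 2468 bp after that of Pcdhga12.

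Smc3 pileups, where a peak was found, had a higher median at sites outside the arrays of variable exons than at 5′ ends. In WT 19 of 35 such sites (54.3%) and 50 of 55 sites at 5′ ends (90.9%) had Smc3, with median pileups of 70 and 30, and in C59 14 of 35 (40%) and 18 of 55 (32.7%), with medians of 49.4 and 24.7. Enhancers are known to lie downstream of the Pcdha constant exons and beyond the Pcdhg cluster, but the annotation used does not name them, so the sites are given by position. Smc3 seen in WT was found in C59 at 14 of 19 such sites (73.7%). The counts were 18 of 50 at 5′ ends (36%) and 2 of 9 in variable exons (22.2%). The median WT fold of the Smc3 peaks was 8.59 at such sites, against 4.70 at 5′ ends and 4.84 in variable exons. Of the whole WT Smc3 list 52.9% of peaks were found in C59. At the spread over deciles of fold of the peaks in the interval of the genes, the genome gave 39.4%, near the share at 5′ ends. The part of fold in the differences between these kinds of site was not tested. With both Smc3 lists at equal length, Smc3 stood at 15 of the 44 sites elsewhere in WT and at 14 in C59, all 14 in common, and at 15 and 18 of the 55 sites at 5′ ends, with 12 in common.

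Between the Pcdha and Pcdhb clusters there were exactly 2 sites, side by side. The first, chr18:37216997-37217953, lay 28603 bp past the end of the Pcdha cluster, with CTCF pileups of 117 in WT and 102 in C59 and Smc3 pileups of 87.0 and 50.2. The other, chr18:37218024-37218933, lay 29541 bp past that end, with CTCF pileups of 142 and 125 and Smc3 pileups of 122 and 82.6. Its Smc3 pileup stood at the percentile 98.1 of the WT list and 98.4 of the C59 list, while its CTCF stood at 75.9 and 72.9. In both lines the Smc3 pileups of the pair exceeded those at all Pcdha 5′ ends, while their CTCF pileups lay within the range seen there.

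Between the Pcdhb and Pcdhg clusters 4 sites had CTCF in both lines. The strongest, chr18:37655055-37656249, at −6171 bp from the 5′ end of Pcdhga1, had CTCF pileups of 211 in WT and 165 in C59 and a weak Smc3 peak in WT alone, with a pileup of 20.0. Its neighbour chr18:37653636-37654448 had CTCF pileups of 89.0 and 60.6 and no Smc3. The site chr18:37570367-37570920, 52305 bp after the 5′ end of Pcdhb22, the last Pcdhb gene, had lower CTCF pileups, 108 and 74.0, and Smc3 in both lines, with pileups of 44.0 and 30.1. The fourth lay in Slc25a2, a mitochondrial carrier gene within the interval, with CTCF pileups of 23.0 and 32.7.

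Within the arrays few sites lay apart from the members' windows. In the Pcdha array 2 weak WT CTCF sites, chr18:36979752-36980045 and chr18:37025045-37025400, had pileups of 28.0 and 34.0 and no peak in the other lists. In the Pcdhg array the strongest, chr18:37771912-37772533, lay 6571 bp after the 5′ end of Pcdhga12, with CTCF pileups of 198 and 188 and Smc3 of 31.0 in WT alone. The next, chr18:37722962-37723578, lay at −2454 bp from the 5′ end of Pcdhga8, with CTCF pileups of 66.0 and 40.4 and Smc3 of 30.0 in WT alone. The site chr18:37666816-37667194, before Pcdhga2, had CTCF pileups of 50.0 and 17.3.

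At the end of the Pcdhg cluster, in the constant part that its members share, chr18:37840654-37841865 had CTCF pileups of 173 in WT and 139 in C59 and Smc3 pileups of 64.0 and 44.8. Beyond it, 6 sites lay inside Diaph1, the neighbouring formin gene, and 4 of them carried CTCF and Smc3 in both lines. The first, chr18:37851835-37852987, 10450 bp past the cluster, had the highest CTCF and the highest Smc3 pileups of the region, with CTCF of 303 and 275 and Smc3 of 191 and 126, at the percentile 99.9 of both Smc3 lists. At chr18:37877081-37878166 CTCF was 248 and 195 and Smc3 139 and 74.1. At chr18:37880119-37880815 CTCF was 222 and 164 and Smc3 141 and 102. At chr18:37883147-37884238 CTCF was 287 and 257, with the highest WT fold of the region, 45.4, and Smc3 was 95.0 and 61.0. The other 2 Diaph1 sites had CTCF in both lines, at chr18:37886673-37887616 with pileups of 149 and 118 and no Smc3, and at chr18:37907767-37908748 with pileups of 191 and 150 and Smc3 of 36 in WT alone. The 4 sites with both proteins had more Smc3 in WT than each member's 5′ end apart from Pcdhga12, whose pileup was 116.

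In the outer flanks Smc3 also differed between sites. Past Diaph1, chr18:38013452-38015391 had CTCF pileups of 262 and 207, Smc3 pileups of 135 and 62.5 and the highest WT Smc3 fold of the region, 22.3. By contrast chr18:37983844-37985005 in Arap3, with CTCF pileups of 223 and 192, had Smc3 pileups of 40.0 and 20.1. Before the Pcdha cluster, chr18:36739591-36740615 in Tmco6 had CTCF of 164 and 127 and Smc3 of 70.0 and 34.7. Nearer to Pcdha1, chr18:36783174-36784201 in Hars2 and chr18:36802573-36803519 had higher CTCF, 218 and 171 at the first and 196 and 172 at the other, and Smc3 in WT alone, with pileups of 55 and 27. Over the sites after the Pcdhg cluster, 9 of the 10 with WT Smc3 had C59 Smc3, and before the Pcdha cluster 1 of 3. The share over the whole WT Smc3 list was 52.9%.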

How the data were processed

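ChIP-seq peak lists of CTCF and Smc3 from WT and C59 JM8.N4 cells were used, and input and control IgG libraries are not analysed here. The submitters' processing notes name MACS2 2.1.0.20140616, Bowtie 0.12.8 and the build mm10 among other tools, without their roles. The control library, threshold, read depth and handling of reads with several matches are not given in the sources used here. Per the labels, the Smc3 libraries used an Smc3 antibody, which was followed, although the extraction text speaks of Rad21 instead. For each peak the authors deposited a pileup signal, a p-value and q-value, a fold ratio, a length and a summit, in lists without a header, with 1-based positions.

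Gene positions came from the RefSeq table of GRCm38.p6, the assembly of mm10. Peaks overlapped at 1 bp or more. Implied background was pileup plus 1, divided by fold, minus 1. Shares carry exact Clopper-Pearson intervals at 95%. For comparison, protein-coding genes, Hox genes, olfactory receptor genes and nonclustered protocadherins were taken where the RefSeq promoter table gave a strand. That table was matched by none of the members, so no search for the CTCF motif was run. Scripts used Python 3.11.15, numpy 2.4.6, pandas 2.3.3, scipy 1.17.1 and matplotlib 3.10.9 and were tested on simulated lists.

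The members, lists, windows and alternatives were chosen with earlier results of these data known. Described one by one were the C-type members and Pcdhb1, the 2 highest and 2 lowest of each cluster by WT CTCF fold, the 2 highest by WT Smc3 fold, members with CTCF in 1 line or neither, and in each interval the 3 strongest other sites by WT CTCF fold and the strongest by WT Smc3 fold. Others are said to have been chosen for their values. Alternatives were 50% overlap of both peaks, summits within 250 bp, a −log10 q of at least 10, lists of equal length, no flanks, and wider or narrower windows.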

Additional observations from a re-analysis of the deposited data

How the results depend on the processing

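All 17 values that moved under an alternative involve Smc3. With lists of equal length, WT Smc3 peaks found in C59 came to 81.8%, C59 Smc3 peaks found in WT to 77.8%, WT and C59 CTCF peaks with Smc3 to 36.6% and 42.4%, and WT and C59 Smc3 peaks with CTCF to 78.8% and 83.3%, and members with WT Smc3 at the 5′ end numbered 15. At a −log10 q of at least 10, WT and C59 CTCF peaks with Smc3 came to 45.5% and 18.3%, members with WT and C59 Smc3 at the 5′ end numbered 29 and 6, and the C59 Smc3 summit lay downstream of CTCF at 100% of 6 peaks. With 50% overlap of both peaks, C59 Smc3 peaks found in WT came to 83.3%, WT and C59 CTCF peaks with Smc3 to 36% and 17%, and WT and C59 Smc3 peaks with CTCF to 53.6% and 52.8%, where the median width in the region was 451.5 bp for Smc3 and 821 bp for CTCF in WT. The cause was not tested. Values over the whole genome were not computed under the alternatives, so these changes are not set against those of other peaks or genes.

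Of 68 values under alternatives, 51 stayed within the interval of the share or within 1.5 times the count, among them the members with CTCF at the 5′ end, 44 to 55 of 58. No paired analysis was possible because each line and protein has 1 library. Library depth is not given, so an absent peak does not show an absent protein.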
